A study of Homo sapiens with 18 samples.

Results

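The 49 genes described here carry out or time cell division: they drive entry into mitosis, build the spindle, attach chromosomes to it, separate them and split the cell. They were taken by symbol from a table of 60676 Ensembl genes, and all 49 symbols were found in it. By role they fall into the cyclin and CDK1 module (6 genes), mitotic kinases (3), spindle checkpoint and anaphase genes (8), the chromosomal passenger complex (4), centromere and kinetochore genes (7), spindle assembly factors (5), kinesins (10), cytokinesis genes (2), chromosome structure genes (2) and 2 transcription factors.

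RNA was sequenced from MDA-MB-231, MDA-MB-468 and BT20, which are established human cell lines of triple-negative breast cancer (TNBC), a class defined by the lack of estrogen, progesterone and amplified HER2 receptors. Each line gave 3 libraries of untreated cells (control) and 3 libraries of cells kept in 20 mM nicotinamide (NAM), an amide form of vitamin B3, for 48 h, which makes 18 libraries in all. The medium was RPMI for BT20 and DMEM for both other lines, each with fetal bovine serum and antibiotics, so line and medium cannot be told apart between BT20 and the others. The labels place the untreated RNA before the treatment, so NAM and 48 h of further culture cannot be told apart either, and no cell count or cell cycle measurement was used here.

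The labelled lines were set against epithelial, mesenchymal and receptor markers. Epithelial CDH1 (E-cadherin) averaged 127 FPKM in BT20 controls and 21.9 in those of MDA-MB-468, and stayed at 0.0607 or less in MDA-MB-231 controls, while the mesenchymal repressor ZEB1 averaged 0.307, 0.0340 and 3.80 FPKM in the same order. CDH1 is the only epithelial marker given here, and it does not show how keratins and other epithelial genes behaved. The other mesenchymal markers did not all follow it: VIM (3.71, 0.205 and 241 FPKM) and SNAI2 (1.06, 0 and 8.79) were highest in MDA-MB-231, but FN1 (1.05, 24.0 and 8.89) and TWIST1 (0, 0.783 and 0) in MDA-MB-468. Of the receptors, PGR was listed at 0 in every library and ESR1 averaged 1.77, 0.728 and 0.00127 FPKM in controls, while ERBB2, the gene of HER2, averaged 31.0, 12.7 and 14.4, and RNA does not show whether it was amplified. FPKM is the number of fragments scaled to exon length and to the library's total in protein-coding genes. Depth, recovered from the FPKM steps, was 11538918 to 23084043 reads per library. Of 15 markers of immune, stromal, endothelial, liver and red blood cells, 3 reached 1 FPKM in some BT20 control library and 2 in some BT20 NAM library, against 1 for MDA-MB-468 and 0 for MDA-MB-231. Their summed level was 17.0 to 27.8 FPKM in BT20 controls and 6.45 to 11.1 with NAM, most of it from the endothelial cadherin CDH5, and 4.11 to 4.40 against 1.21 to 2.53 without CDH5. The defining markers DCN, LUM, CD3E, ALB and HBB were at 0 in BT20 controls. The part of this shift in the results below was not tested.

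As background, a cell enters mitosis when cyclin B switches on the kinase CDK1, with help from CDC25 phosphatases and PLK1. Kinetochores then hold each chromosome to spindle microtubules, and the checkpoint proteins keep the anaphase-promoting complex and its activator CDC20 in check until every chromosome is attached. Most of these genes are transcribed in G2 and M phase of the cell cycle, and are held down in resting cells by the DREAM complex. DREAM acts through a short promoter element, the cell cycle genes homology region (CHR). The CCAAT box, another short promoter element, is not a site of DREAM. In bulk RNA, a smaller share of cells in G2 and M phase and less RNA of these genes per dividing cell cannot be told apart.

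The promoters of the members carried both elements often. RefSeq promoter windows of 250 bases before to 50 bases after the start were at hand for 42 of the 49 genes (UBE2C, BUB3, TPX2, BIRC5, FOXM1, TTK and AURKA were not matched). The CHR letters TTTGAA, read on either strand, stood in 30 of the 42 windows (71.4%) against 15.6% of all 27305 promoters of the table, and the variant TTCGAA in 3 (7.14%) against 1.45%. The letters CCAAT, on either strand, stood in 33 (78.6%) against 35.6%. A CHR and a CCAAT together stood in 27 (64.3%) against 6.63%. The windows of KIF2C, MYBL2, CDC25B and CENPE held neither. These are matches of letters and not measured binding sites.

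The following stretches hold the elements wholly upstream of the start in the 6 genes with both elements and the largest change under NAM in BT20, described further on. Each runs 5′ to 3′ on the strand of its gene (RefSeq, GRCh38.p14), from the first to the last element with 10 flanking bases where the window allowed. Capitals mark TTTGAA or its reverse complement TTCAAA, and CCAAT or its reverse complement ATTGG. PLK1 is at chr16:23678806-23678875 (plus strand), SPC25 at chr2:168890472-168890680 (minus), DLGAP5 at chr14:55191593-55191733 (minus), ESPL1 at chr12:53268241-53268283 (plus), CDC20 at chr1:43358793-43358940 (plus) and CDCA8 at chr1:37692391-37692512 (plus).
PLK1: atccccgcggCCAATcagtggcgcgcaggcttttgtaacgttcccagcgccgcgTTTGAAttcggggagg
SPC25: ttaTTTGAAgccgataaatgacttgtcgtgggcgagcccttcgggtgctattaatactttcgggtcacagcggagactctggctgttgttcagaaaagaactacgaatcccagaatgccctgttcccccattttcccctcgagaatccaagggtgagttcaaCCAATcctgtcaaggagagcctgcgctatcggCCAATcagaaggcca
DLGAP5: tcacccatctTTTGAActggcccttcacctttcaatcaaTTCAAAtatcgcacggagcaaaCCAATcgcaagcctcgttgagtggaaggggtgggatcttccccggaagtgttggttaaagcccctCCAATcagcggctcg
ESPL1: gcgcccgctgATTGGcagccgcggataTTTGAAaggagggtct
CDC20: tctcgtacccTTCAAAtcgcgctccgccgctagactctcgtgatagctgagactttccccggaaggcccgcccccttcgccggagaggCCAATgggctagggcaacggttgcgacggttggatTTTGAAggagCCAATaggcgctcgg
CDCA8: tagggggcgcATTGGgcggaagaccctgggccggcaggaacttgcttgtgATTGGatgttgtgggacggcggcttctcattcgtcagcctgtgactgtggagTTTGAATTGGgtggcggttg
In PLK1 and ESPL1 a CCAAT box and a CHR stood once each, with the CCAAT box farther from the start. In CDCA8 the CHR and a CCAAT box in reverse overlapped, which gives the run TTTGAATTGG.

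Of the 49 genes, 47 passed the filter of at least 1 FPKM in 3 libraries in every comparison. NUSAP1 and PRC1, which bind and bundle spindle microtubules, did not pass in any. NUSAP1 stayed at or under 0.0980 FPKM and PRC1 at or under 0.468 in all 18 libraries. In GENCODE v44, 86.8% of the exon bases of NUSAP1 and 57.6% of those of PRC1 are shared with another gene on the same strand, so that these values are uncertain, and the genes are not followed further.

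In controls the 47 genes were well expressed. The median of their mean levels was 30.7 FPKM for BT20, 24.6 for MDA-MB-468 and 33.5 for MDA-MB-231. MYBL2, a transcription factor that joins DREAM subunits to activate mitotic genes, had the highest level in BT20 (181 FPKM), and CDC20 the highest of MDA-MB-468 (150 FPKM) and of MDA-MB-231 (188 FPKM). The lowest levels were those of the kinetochore motor CENPE in BT20 (2.73 FPKM) and MDA-MB-231 (3.36) and of KIF14, a kinesin of late cytokinesis, in MDA-MB-468 (2.08).

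**Figure D1:**
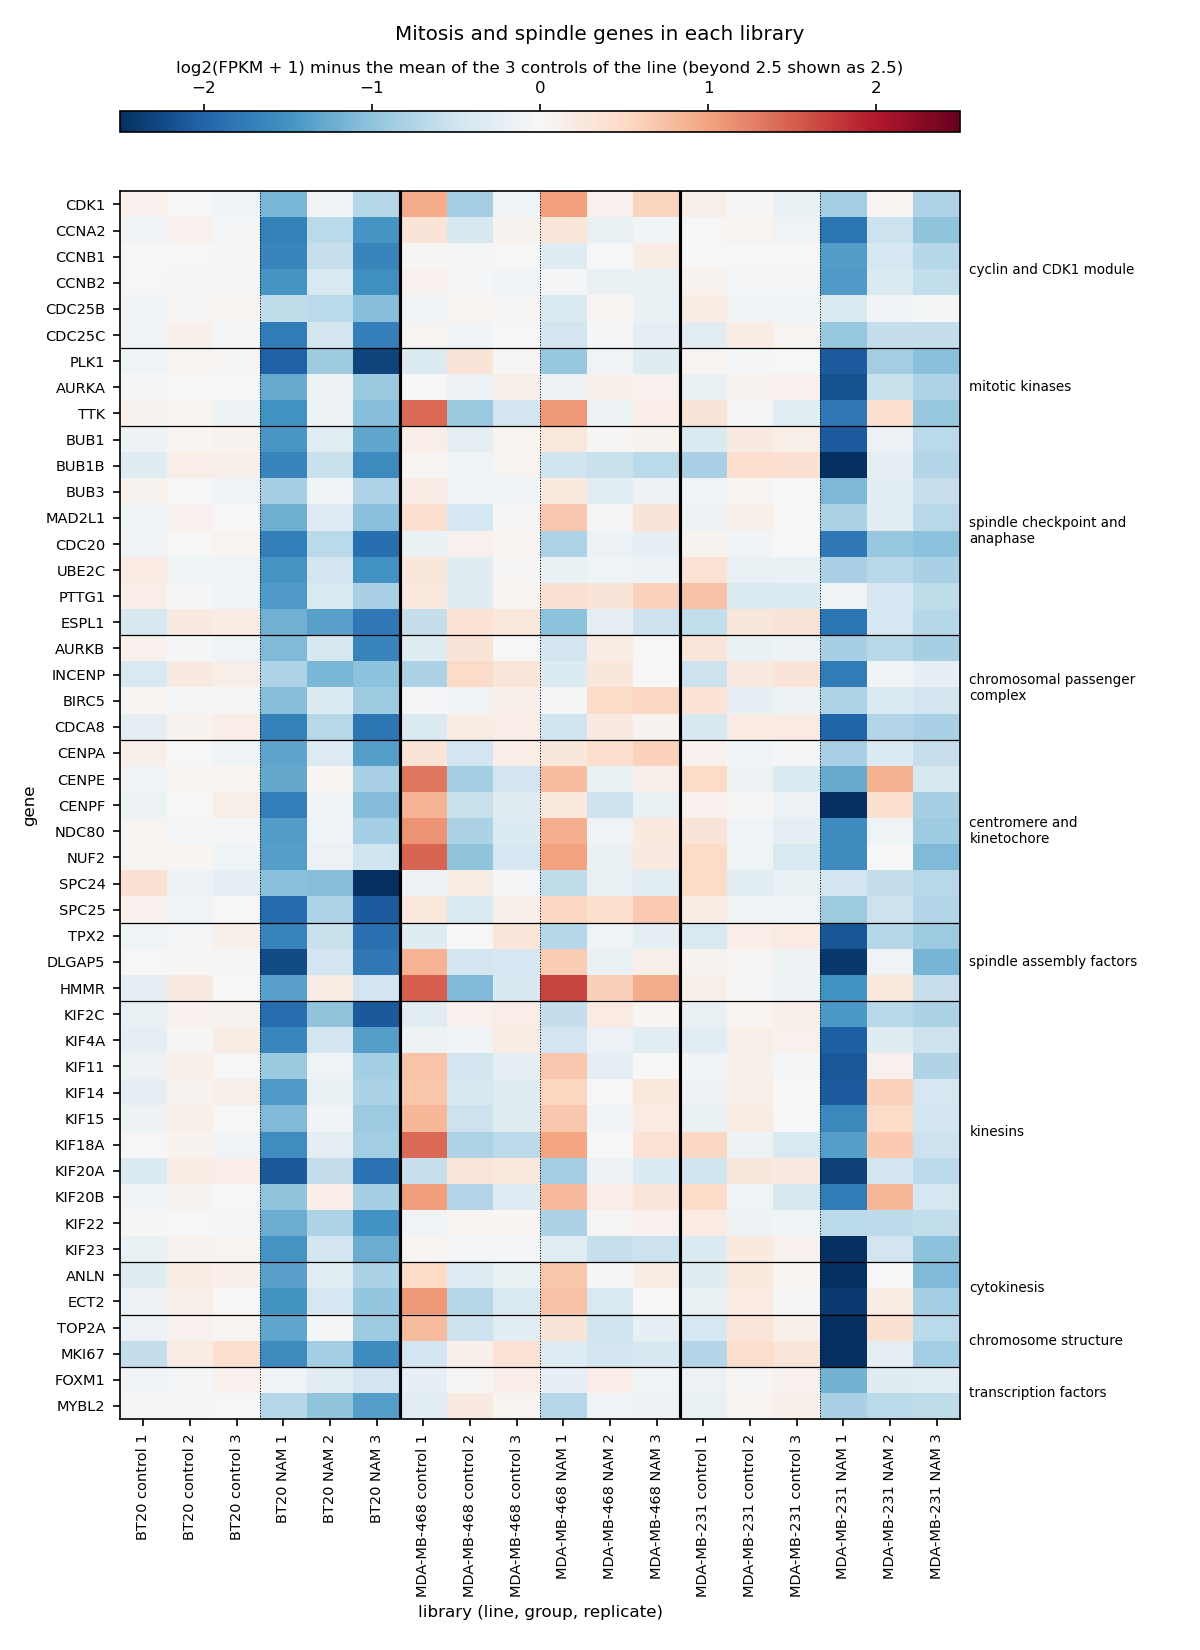
Heat map of the 47 tested genes (vertical axis, ordered by role) in the 18 libraries (horizontal axis, by line and treatment); colour is log2(FPKM + 1) after subtracting the mean of the 3 controls of the same line. In BT20 the NAM libraries 1 and 3 are below the controls nearly throughout and NAM 2 less so, in MDA-MB-231 NAM 1 is lowest, and MDA-MB-468 shows no common direction.

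The replicates differed, and the differences bore on what could be called. Taking the median over the 47 genes of log2(FPKM + 1) minus the control mean, BT20 NAM 1, 2 and 3 stood at −1.41, −0.39 and −1.24, and MDA-MB-231 NAM 1, 2 and 3 at −1.62, −0.30 and −0.71. The MDA-MB-468 NAM libraries stood at −0.03, −0.08 and 0.01. In BT20 NAM 1 and NAM 3 all 47 genes were below every control, and in NAM 2 the number was 36. The numbers were 46, 24 and 44 for MDA-MB-231, and 18, 7 and 9 for MDA-MB-468.

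Part of the replicate spread moved with the GC content of the transcripts, which was below 50% in 33 of the 47 genes. The difference of a library from the mean of its 2 sister replicates correlated with GC content over the 47 genes at a Pearson r of −0.81 in MDA-MB-468 control 1 and −0.86 in NAM 1, and at 0.82 and 0.87 in control 2 and NAM 2. Over all genes tested the same values were −0.59, −0.66, 0.61 and 0.60. Genes share each library, so these are descriptions over genes with no test. NUF2, a kinetochore subunit with 38.8% GC, showed it in FPKM: its MDA-MB-468 controls were at 17.5, 2.36 and 4.03 and the NAM libraries at 12.7, 5.07 and 6.93. In BT20 the r was 0.78 for NAM 1 and −0.53 for NAM 2, while the controls stayed between −0.19 and 0.16, and in MDA-MB-231 it was 0.45 for NAM 1 and −0.68 for NAM 2. All comparisons were therefore also run after an adjustment for GC content, chosen after the data were seen.

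**Figure D2:**
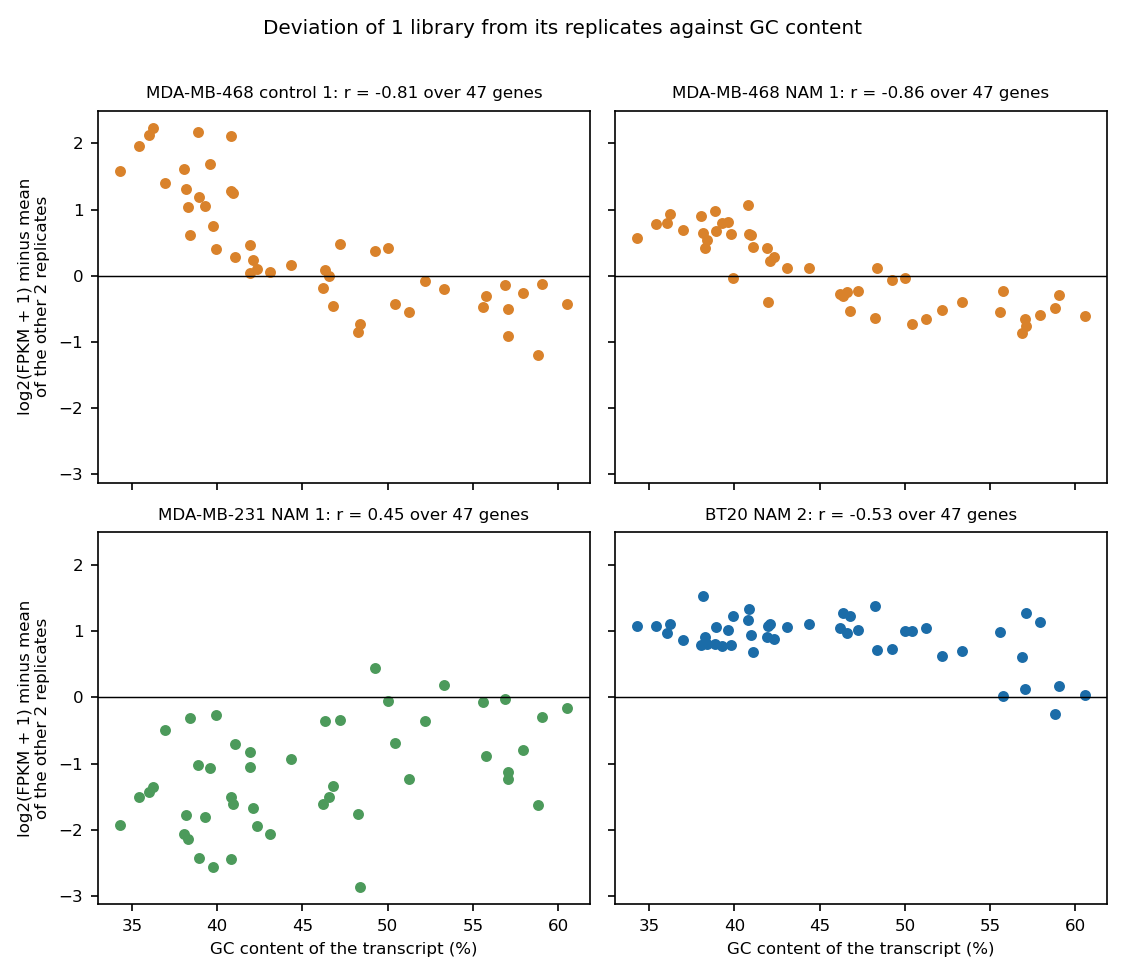
Difference of 1 library from the mean of its 2 sister replicates (vertical axis, log2 scale) against GC content of the transcript in percent (horizontal axis), with 1 point for each of the 47 genes. The points slope down in MDA-MB-468 control 1 and NAM 1 (r = −0.81 and −0.86) and in BT20 NAM 2 (r = −0.53). They slope up in MDA-MB-231 NAM 1 (r = 0.45).

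The first comparison asked which of these genes changed under NAM in BT20. In BT20 30 of the 47 genes fell and 0 rose, against a background of 8.51% of 14965 tested genes that fell and 8.16% that rose (limma, Benjamini-Hochberg adjusted p under 0.05). All 47 fold changes were negative, with a median of −0.98 on the log2 scale against 0.02 over all genes, and 44 genes had an unadjusted p under 0.05. In 36 genes every NAM library was below every control, against 18.3% of all genes. The called genes came from all 10 role groups.

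In the cyclin and CDK1 module 5 of 6 genes fell. CDC25C, a phosphatase that removes the inhibitory phosphates of CDK1, had the largest change: 8.02, 9.44 and 8.31 FPKM in controls 1, 2 and 3 and 1.85, 5.99 and 1.93 with NAM. Its groups did not overlap, and its log2 fold change was −1.33 ± 0.32 (SE, n = 3 and 3, limma adjusted p = 0.0253). The mitotic cyclins CCNB1 (−1.27), CCNA2 (−1.25) and CCNB2 (−1.09) and the phosphatase CDC25B (−0.76) fell too, while CDK1 itself, at −0.62, was not called (limma adjusted p = 0.117).

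PLK1 was the only one of the 3 mitotic kinases called, and had the largest fold change of all 47 genes. PLK1 acts from mitotic entry to cytokinesis (chromosome 16, 23677656 to 23690367 on GRCh38, GENCODE v44), and 12.8% of its exon bases overlap genes on the opposite strand. Its level was 31.6, 35.7 and 34.8 FPKM in controls and 7.59, 17.8 and 5.99 with NAM, a log2 fold change of −1.75 ± 0.33 (limma adjusted p = 0.0112). NAM 2 lay between the other NAM libraries and the controls. The spindle pole kinase AURKA was at 26.5, 60.1 and 34.1 FPKM with NAM and at 63.9 to 66.1 in controls, so that NAM 2 came close to the controls (−0.72, limma adjusted p = 0.0898). The checkpoint kinase TTK was also not called (−0.94, limma adjusted p = 0.0693).

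Of the 8 spindle checkpoint and anaphase genes 7 fell. ESPL1 is separase, the protease that cuts cohesin at anaphase, and its level was 7.32, 11.8 and 11.6 FPKM in controls and 3.80, 3.31 and 2.21 with NAM. Here NAM 2 did not stand apart, and the log2 fold change was −1.48 ± 0.23 (limma adjusted p = 0.00587). CDC20, the activator of the anaphase-promoting complex, was at 88.8, 92.4 and 97.9 FPKM in controls and 27.7, 58.0 and 24.3 with NAM (−1.40). BUB1B (−1.28), the ubiquitin-conjugating enzyme UBE2C (−1.12), BUB1 (−1.01), MAD2L1 (−0.87) and securin PTTG1 (−0.83) also fell, and BUB3 (−0.60, limma adjusted p = 0.0909) was not called.

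All 4 genes of the chromosomal passenger complex, which corrects wrong attachments and then steers cytokinesis, fell. CDCA8, the subunit borealin, was at 28.4, 35.9 and 37.98 FPKM in controls and 9.83, 20.4 and 9.02 with NAM, a log2 fold change of −1.38 ± 0.29 (limma adjusted p = 0.0161). The kinase AURKB (−1.03), the scaffold INCENP (−0.98) and survivin BIRC5 (−0.72) followed.

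At the centromere and kinetochore 3 of 7 genes fell. The subunits SPC25 and SPC24 form one end of the NDC80 complex, the main microtubule anchor of the kinetochore. SPC25 was at 25.8, 22.7 and 23.8 FPKM in controls and 5.63, 13.8 and 4.93 with NAM, without overlap (−1.59 ± 0.32, limma adjusted p = 0.0133). SPC24 fell by 1.54 on the log2 scale (limma adjusted p = 0.0273), and the centromeric histone CENPA by 0.97 (limma adjusted p = 0.0370). CENPA shares 7.1% of its exon bases with SLC35F6 on the same strand. The other end of the complex, NDC80 (−0.78, limma adjusted p = 0.0876) and NUF2 (−0.69, limma adjusted p = 0.119), was not called, nor were CENPE (−0.70) and CENPF (−0.97).

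Of the 3 tested spindle assembly factors 2 fell. DLGAP5, which stabilizes kinetochore fibres, was at 34.8, 35.3 and 33.3 FPKM in controls and 6.54, 24.5 and 9.24 with NAM (−1.49 ± 0.38, limma adjusted p = 0.0303). TPX2, the partner that brings AURKA to the spindle, fell by 1.35 on the log2 scale (limma adjusted p = 0.0221). HMMR, a spindle pole protein, was not called (−0.58, limma adjusted p = 0.248).

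Of the 10 kinesins, motors that slide or take apart microtubules, 5 fell. KIF2C, which depolymerizes microtubule ends at the centromere, was at 39.4, 48.8 and 47.7 FPKM in controls and 11.4, 22.1 and 9.79 with NAM (−1.64 ± 0.28, limma adjusted p = 0.00766). KIF20A (−1.498), KIF4A (−1.15), KIF22 (−1.15) and the midzone motor KIF23 (−1.06) fell as well. The other 5, among them the bipolar motor KIF11, ranged from −0.93 to −0.59 and were not called (limma adjusted p = 0.0565 to 0.173).

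In the remaining groups 1 of 2 genes was called each time. ECT2, the exchange factor that switches on RhoA at the division plane, was at 39.6, 49.1 and 44.3 FPKM in controls and 15.04, 32.5 and 22.1 with NAM (−0.93 ± 0.25, limma adjusted p = 0.0350), and the scaffold ANLN was not called (−0.77, limma adjusted p = 0.0794). MKI67, the Ki-67 antigen that coats mitotic chromosomes, was at 8.48, 15.2 and 18.1 FPKM in controls and 3.78, 6.91 and 3.82 with NAM (−1.37 ± 0.29, limma adjusted p = 0.0169), and TOP2A was not called (−0.69, limma adjusted p = 0.125). MYBL2 was at 184, 176 and 183 FPKM in controls and 110, 89.6 and 68.7 with NAM (−0.995 ± 0.19, limma adjusted p = 0.0108).

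FOXM1, the forkhead factor that activates G2 and M phase genes, had the smallest fold change of the 47. It was at 82.9, 83.9 and 92.8 FPKM in controls and 81.6, 71.9 and 62.0 with NAM (−0.23 ± 0.17, limma adjusted p = 0.369). Of its exon bases 15.9% overlap a gene on the opposite strand. The same holds for 9.2% of those of CCNA2, 8.8% of those of CDC25C and 7.8% of those of KIF22. Whether the reads were counted by strand is not given in the sources used here, so values of genes with such overlaps are uncertain to that extent.

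**Figure D3:**
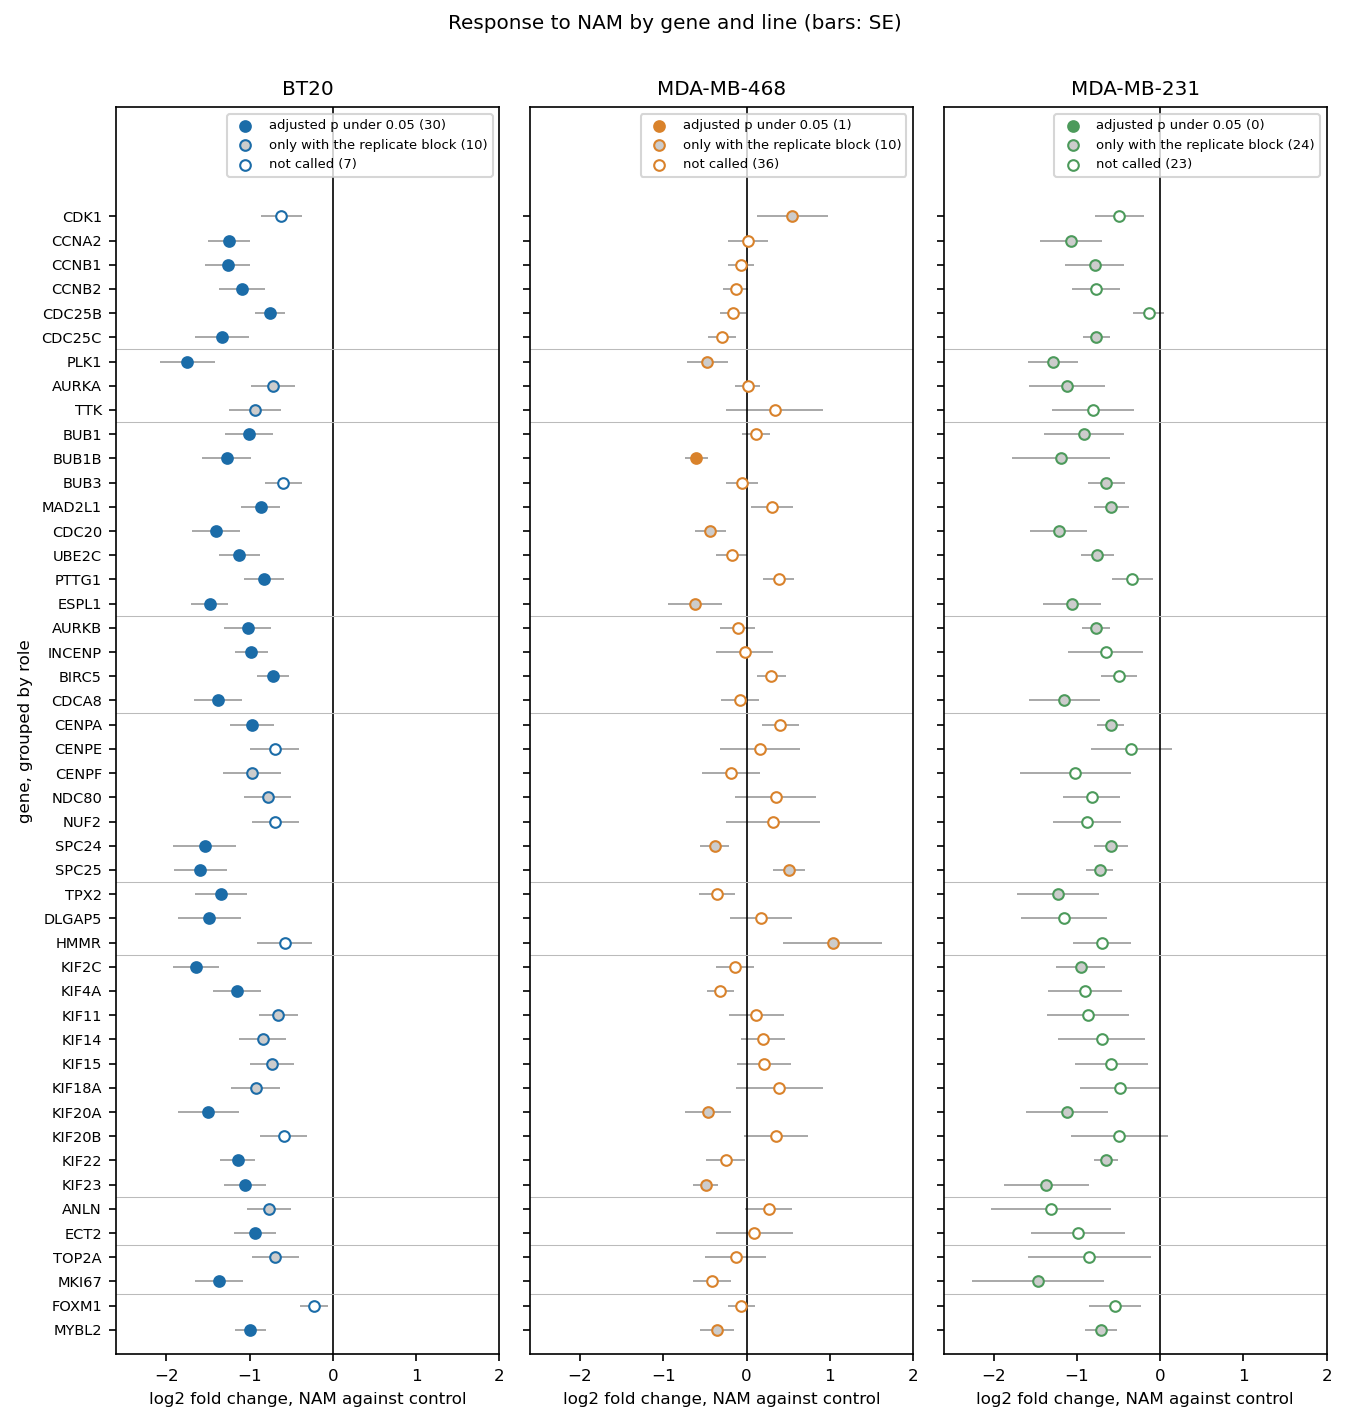
Log2 fold change of NAM against control (horizontal axis) for each of the 47 genes (vertical axis, by role) in the 3 lines, with the SE as bars. Points filled in colour had a limma adjusted p under 0.05, and grey points only with the replicate block. In BT20 all points lie below 0 and 30 are filled in colour, and in MDA-MB-468 they spread around 0. In MDA-MB-231 all lie below 0 with wide bars and without a coloured fill.

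The count in BT20 depended on single libraries and on the filter. Without NAM 2, 46 genes fell against 10.3% of all genes, without NAM 1 17 against 11.8%, and without NAM 3 6 against 2.46%. Without control 1, 2 or 3 the counts were 10, 7 and 9, against 3.02%, 2.25% and 2.59%. With no filter on low values, 33691 genes were tested and only ESPL1 fell (1.45% of all genes). A pseudocount of 0.1 in place of 1 gave 23, with no share of all genes at hand. With the filter, ESPL1, KIF22, KIF2C and PLK1 were called in all 6 of the fits that left out 1 library. Of the 17 genes that were not called, 16 had a GC content below 50%, against 17 of the 30 called. After the GC adjustment 43 genes fell (9.95% of all genes), among them 28 of the 30, with AURKB and CDC25B no longer called.

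The second comparison asked the same in MDA-MB-468, and gave 1 gene. BUB1B, the checkpoint kinase BubR1 that holds back CDC20, was at 15.8, 14.1 and 16.2 FPKM in controls and 10.5, 10.1 and 9.21 with NAM. The groups did not overlap and the log2 fold change was −0.60 ± 0.14 (limma adjusted p = 0.0369). So 1 of 47 fell and 0 rose, against a background of 5.43% and 3.56% of 14752 genes, and 4 genes had an unadjusted p under 0.05. The median log2 fold change was −0.05, and 0.04 without control 1. In GENCODE v44, 10.2% of the exon bases of BUB1B are shared with the read-through gene BUB1B-PAK6 and with PAK6. BUB1B was not called when any 1 of the 6 libraries was left out.

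Same-numbered control and NAM libraries deviated together in this line (replicate 1 sloped with GC content in both arms), so the fit was repeated with replicate number as a block. With the block 8 genes fell (14.3% of all genes) and 3 rose (15.4%). BUB1B, PLK1, CDC20, ESPL1, SPC24, KIF20A, KIF23 and MYBL2 fell, and CDK1, SPC25 and HMMR rose. PLK1 was at 27.0, 42.9 and 34.9 FPKM in controls and 17.3, 32.2 and 27.6 with NAM, lower within each pair (−0.47, limma adjusted p = 0.0205 with the block and 0.295 without). HMMR was at 26.4, 3.54 and 6.44 FPKM in controls and 30.5, 13.7 and 17.5 with NAM, higher within each pair although the pairs differ by more than the change (1.03, limma adjusted p = 0.0187 with the block and 0.340 without). CDK1 was at 53.1, 14.98 and 25.4 FPKM in controls and 56.6, 29.6 and 40.7 with NAM (0.55, limma adjusted p = 0.0341 with the block and 0.489 without). With the block and the GC adjustment together 7 fell (14.9% of all genes) and 3 rose (14.5%), with PTTG1 in place of CDK1 among those that rose and without SPC24 among those that fell. These counts too lay near and below the shares of all genes.

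Replicate 1, the pair with the opposite GC slope to the other pairs, was then left out of both arms, a choice made after the data were seen. In this fit 8 of the 46 genes tested rose (11.1% of all genes) and 5 fell (11.4%). HMMR (1.46), KIF18A (0.82), CDK1 (0.77), NUF2 (0.71), TTK (0.68), KIF20B (0.67), SPC25 (0.64) and NDC80 (0.62) rose, and MKI67 (−0.72), ESPL1 (−0.71), BUB1B (−0.63), KIF23 (−0.57) and KIF20A (−0.54) fell. The 8 that rose had 34.3% GC (KIF20B) to 40.8% (TTK), and the 5 that fell 42.3% (KIF23) to 57.0% (ESPL1). This fit was not repeated with the GC adjustment. In the main fit of this line, the fold changes correlated with GC content at a Pearson r of −0.58 over the 47 genes. Over all genes the r was −0.13. The 3 genes that rose with the block were also below 50% GC. With control 1 alone left out, HMMR, KIF18A and KIF20B rose and MKI67 fell.

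The third comparison concerned MDA-MB-231, where 0 genes were called in either direction by limma (background 1.09% lower and 0.829% higher of 13869 genes), although all 47 fold changes were negative. The median was −0.79, 20 genes had an unadjusted p under 0.05, and limma-voom on recovered reads also called 0. In 23 genes every NAM library was below every control, against 10.4% of all genes. PLK1 was at 48.8, 44.9 and 46.1 FPKM in controls and 10.3, 25.1 and 22.2 with NAM (−1.28 ± 0.30, limma adjusted p = 0.0844). MKI67 was at 21.2, 48.9 and 44.2 FPKM in controls and 2.47, 30.5 and 19.4 with NAM, with overlapping groups and a wide error (−1.47 ± 0.79, limma adjusted p = 0.367). In both genes NAM 1 was the lowest library, and for MKI67 control 1 was the lowest control.

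The pairs of this line also deviated together, with replicate 1 again apart and libraries 2 and 3 alike across numbers. With the replicate block 24 of 47 genes fell (11.4% of all genes) and 0 rose (12.6%). ESPL1 had the smallest block p: 6.44, 12.9 and 13.3 FPKM in controls and 2.27, 7.38 and 5.98 with NAM (−1.06, limma adjusted p = 0.0101 with the block and 0.155 without). CDCA8 was at 55.3, 84.5 and 84.5 FPKM in controls and 17.5, 43.6 and 41.6 with NAM (−1.15, limma adjusted p = 0.0119 with the block and 0.201 without). CDC20 was at 199, 179 and 187 FPKM in controls and 53.8, 97.2 and 91.4 with NAM, without overlap (−1.22, limma adjusted p = 0.0172 with the block and 0.121 without). In all 3 genes each NAM library was below its own control.

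By role, the 24 were 3 of 6 in the cyclin and CDK1 module (CCNA2, CCNB1, CDC25C), 2 of 3 mitotic kinases (PLK1, AURKA) and 7 of 8 spindle checkpoint and anaphase genes, PTTG1 being the exception (−0.33). They were AURKB and CDCA8 of the passenger complex, CENPA, SPC24 and SPC25 at the kinetochore, TPX2 among the spindle assembly factors, and the kinesins KIF2C, KIF20A, KIF22 and KIF23. MKI67 and MYBL2 completed them, and neither cytokinesis gene was among them. Of the 30 genes called in BT20, 22 (73.3%) were among these 24 (91.7%), the other 2 being AURKA and BUB3.

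Without both libraries of replicate 1, whose NAM library stood farthest from the controls, 23 genes fell (15% of all genes), of which 20 were also called with the block, and 0 rose (14.2%). With the block and the GC adjustment 23 fell (14.4%), and with the GC adjustment alone 2 did (2.49%), KIF22 and CDC25C. The median over the 47 genes was −0.48 without NAM 1 and −1.16 without NAM 2.

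**Figure D4:**
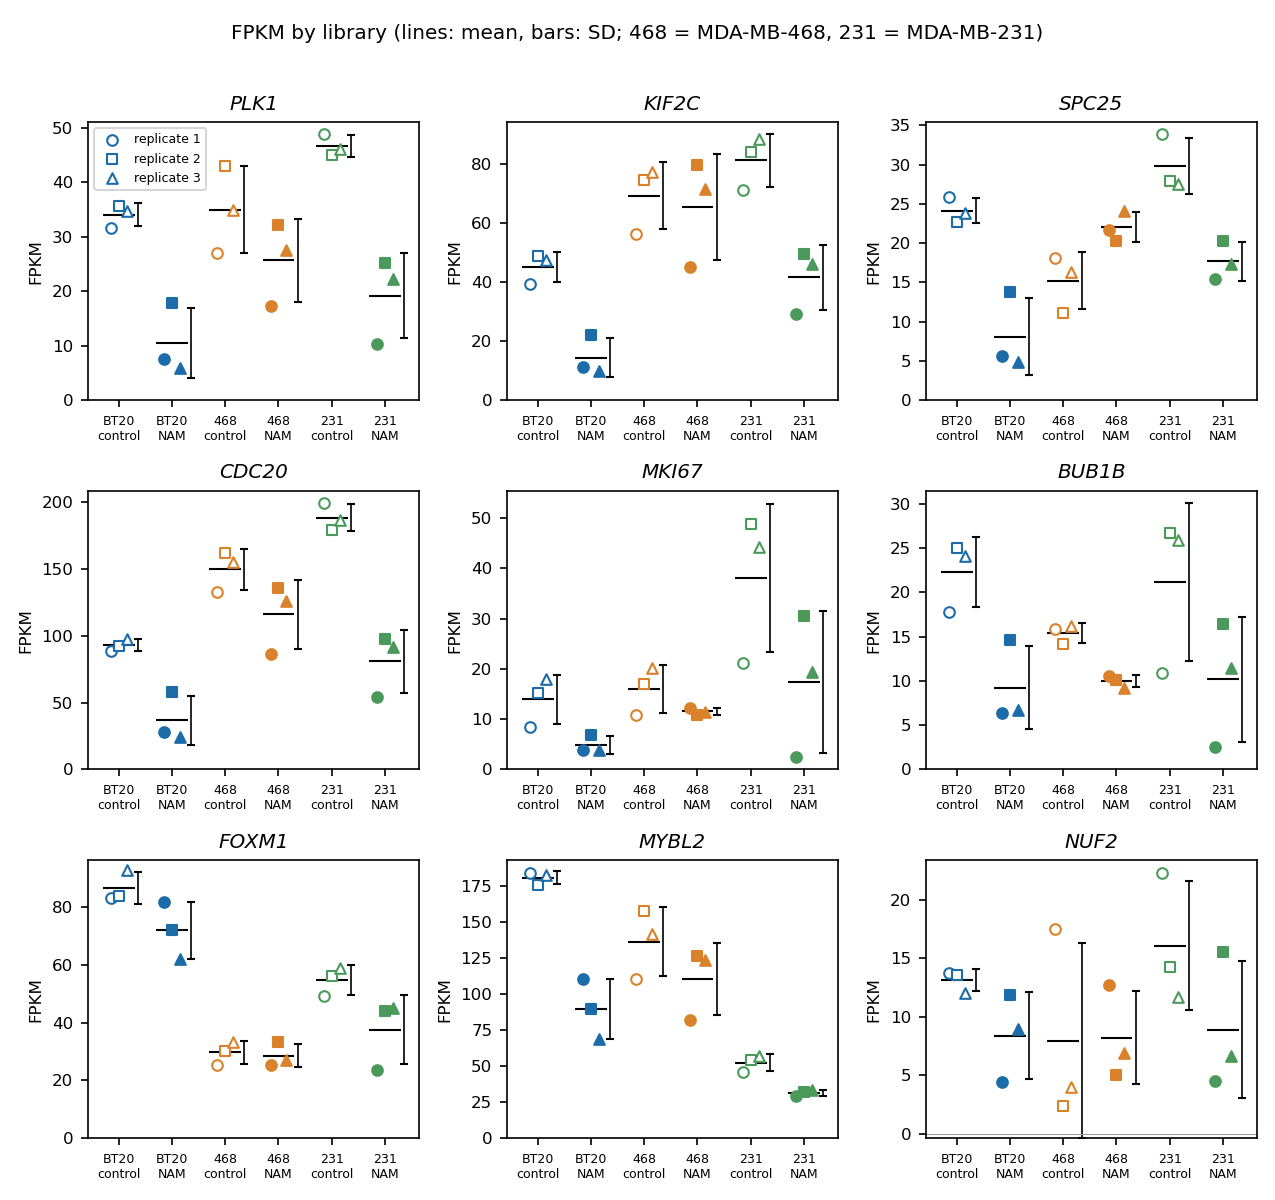
FPKM (vertical axis) of 9 genes in every library (points, shaped by replicate), by line and treatment (horizontal axis), with the group mean as a line and its SD as a bar. In BT20 the control and NAM points of PLK1 and KIF2C do not overlap, and in MDA-MB-468 they overlap for both genes.

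Whether NAM acted differently between lines was tested as a line-by-treatment interaction over all 18 libraries (17784 genes, normalized together, so that values differ slightly from the separate fits). Between MDA-MB-468 and BT20 all 47 differences were positive, which means less of a decrease in MDA-MB-468, with a median of 1.05. Of these 5 were called (background 2.24%) and 0 in the other direction (3.19%). SPC25 had the largest difference: it was at 18.1, 11.2 and 16.3 FPKM in MDA-MB-468 controls and 21.6, 20.3 and 24.1 with NAM, all above the controls, where the BT20 values above went down (2.18 ± 0.39, limma adjusted p = 0.00273). KIF2C was at 56.3, 74.6 and 77.3 FPKM in MDA-MB-468 controls and 45.3, 79.7 and 71.5 with NAM (1.58 ± 0.42, limma adjusted p = 0.0372).

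CENPA was at 30.0, 16.8 and 27.0 FPKM in MDA-MB-468 controls and 29.4, 32.9 and 36.3 with NAM, and at 42.5, 38.7 and 35.9 against 15.1, 30.8 and 14.3 in BT20 (1.41 ± 0.34, limma adjusted p = 0.0228). PTTG1, securin, was at 90.2, 61.4 and 77.9 FPKM against 99.3, 94.6 and 113 in MDA-MB-468 and at 45.9, 39.2 and 37.5 against 14.7, 31.1 and 23.0 in BT20 (1.23 ± 0.34, limma adjusted p = 0.0434). BIRC5 was at 49.01, 48.0 and 55.8 FPKM against 49.7, 70.4 and 72.9 in MDA-MB-468 and at 48.1, 45.4 and 45.4 against 21.6, 36.1 and 24.7 in BT20 (1.04 ± 0.27, limma adjusted p = 0.0357). In each of these the groups were apart in BT20, and for PTTG1 also in MDA-MB-468, upwards.

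The number of such genes depended on single libraries. It ranged from 1 to 16 when 1 of the 12 libraries was left out, with 16 without BT20 NAM 2 (2.92% of all genes), and SPC25 was called each time. With a replicate block 15 were called (6.03%), and after the GC adjustment 13 (3.72%). Between MDA-MB-231 and BT20 0 genes were called by limma (2.92% higher, 2.42% lower), with a median difference of 0.31, 3 genes at an unadjusted p under 0.05 and 0 by limma-voom. That median depended on single NAM libraries: it was −0.05 without MDA-MB-231 NAM 2 and 0.67 without MDA-MB-231 NAM 1, and 0.09, 0.61 and 0.13 without BT20 NAM 1, 2 and 3, with 13 genes at an unadjusted p under 0.05 without BT20 NAM 2. For MDA-MB-231 against MDA-MB-468 0 were called as well (3.18% higher, 1.69% lower), with a median of −0.79, 7 genes at an unadjusted p under 0.05 and 0 by limma-voom. Without MDA-MB-231 NAM 1 the median was −0.39 with 3 such genes, without MDA-MB-231 NAM 2 it was −1.06 with 27, and without MDA-MB-468 control 1 there were 17. With the block the last count was 3 lower (CDCA8, MAD2L1 and HMMR, 3.78% of all genes).

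Across the 47 genes the NAM fold changes of BT20 and MDA-MB-231 correlated at a Pearson r of 0.522, those of BT20 and MDA-MB-468 at 0.547 and those of the other pair at 0.482. These are descriptions over genes of shared libraries.

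The last comparisons set the untreated lines side by side, and share the control libraries with each other and with the NAM comparisons. Between MDA-MB-468 and BT20, 20 of 47 genes were lower in MDA-MB-468 and 6 higher, against 28.6% and 26.7% of 16449 genes, with a median of −0.37. Between MDA-MB-231 and BT20, 17 were higher in MDA-MB-231 and 5 lower, against 30.4% and 28.6%, with a median of 0.33. Here the 17 lay near the share of all genes and the 5 below it. For MDA-MB-231 against MDA-MB-468, 25 were higher in MDA-MB-231 and 2 lower, against 29.3% and 26.5%, with a median of 0.70. Between MDA-MB-231 and BT20 the median of all genes was 0.045 here, −0.13 without quantile normalization and −0.18 by limma-voom, with 17 higher and 4 or 5 lower members in both.

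Both transcription factors were called in all 3 pairs of lines. MYBL2 was at 184, 176 and 183 FPKM in BT20, at 111, 158 and 142 for MDA-MB-468 and at 46.1, 54.3 and 57.3 for MDA-MB-231, and no group overlapped another. Its log2 difference between MDA-MB-231 and BT20 was −1.91 ± 0.18 (limma adjusted p = 1.41e-05) and against MDA-MB-468 it was −1.31 (limma adjusted p = 0.000192). FOXM1 had another order: 82.9, 83.9 and 92.8 FPKM in BT20, 49.1, 56.1 and 59.0 in MDA-MB-231 and 25.5, 30.3 and 33.3 in MDA-MB-468, with a difference of −1.63 ± 0.16 between MDA-MB-468 and BT20 (limma adjusted p = 2.54e-05).

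In the cyclin module CCNA2, the cyclin of S phase and mitotic entry, was highest in MDA-MB-231, at 96.5, 100.4 and 90.3 FPKM, against 44.7, 51.9 and 47.1 in BT20 and 41.0, 24.5 and 35.0 in MDA-MB-468 (0.92 ± 0.19 against BT20, limma adjusted p = 0.00265; 1.49 ± 0.19 against MDA-MB-468, limma adjusted p = 0.000149). CCNB2 had its highest level in BT20, at 59.7, 60.2 and 57.2 FPKM, with 36.3, 33.1 and 31.6 in MDA-MB-468 (−0.85 ± 0.11, limma adjusted p = 0.000137) and 44.5, 40.7 and 41.2 in MDA-MB-231. CDC25B went against most members: 32.5, 35.5 and 36.2 FPKM in BT20, then 59.3, 64.9 and 64.4 for MDA-MB-468 and 50.5, 41.1 and 41.9 for MDA-MB-231, higher in MDA-MB-468 than in either other line (0.79 over BT20, limma adjusted p = 0.000228).

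Among kinases and checkpoint genes the orders differed from gene to gene. AURKA was at 30.4, 27.3 and 33.7 FPKM in MDA-MB-468, below 63.9, 66.0 and 66.1 in BT20 (−1.13 ± 0.16, limma adjusted p = 0.000246) and 73.4, 88.4 and 89.5 in MDA-MB-231 (1.44 ± 0.16, limma adjusted p = 4.72e-05). AURKA was not called between MDA-MB-231 and BT20 (0.31, limma adjusted p = 0.119). BUB3, a checkpoint protein that carries BUB1 to kinetochores, was at 9.27, 8.73 and 8.19 FPKM in BT20, at 19.5, 15.9 and 15.7 for MDA-MB-468 and at 22.9, 25.6 and 24.4 for MDA-MB-231, and all 3 pairs of lines were called (1.46 ± 0.13 between MDA-MB-231 and BT20, limma adjusted p = 8.13e-06). MAD2L1, which binds and blocks CDC20, was at 28.6, 34.3 and 31.1 FPKM in MDA-MB-231 and 15.3, 8.04 and 11.4 in MDA-MB-468 (1.41 ± 0.19, limma adjusted p = 0.000216). CDC20 was lowest in BT20, and higher in MDA-MB-468 (0.55, limma adjusted p = 0.0119) and MDA-MB-231 (0.82, limma adjusted p = 0.00127).

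CDCA8 was also lowest in BT20, with 55.1, 81.5 and 80.1 FPKM in MDA-MB-468 (1.00 ± 0.25, limma adjusted p = 0.00795) and 55.3, 84.5 and 84.5 in MDA-MB-231 (1.08, limma adjusted p = 0.00483). CENPA was lowest in MDA-MB-231, at 18.5, 16.2 and 16.5 FPKM (−1.13 ± 0.19 against BT20, limma adjusted p = 0.000824). DLGAP5 was at 22.9, 8.41 and 8.73 FPKM in MDA-MB-468 (−1.46 ± 0.31 against BT20, limma adjusted p = 0.00318), and ECT2 at 24.8, 6.42 and 8.58 (−1.90 ± 0.39, limma adjusted p = 0.00256), in both with control 1 far above the other controls. MKI67 was at 21.2, 48.9 and 44.2 FPKM in MDA-MB-231 (1.44 ± 0.38 against BT20, limma adjusted p = 0.00991), and the kinesin KIF11 at 25.1, 28.6 and 25.3 against 7.69, 9.30 and 8.43 in BT20 (1.61 ± 0.26, limma adjusted p = 0.00052).

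**Figure D5:**
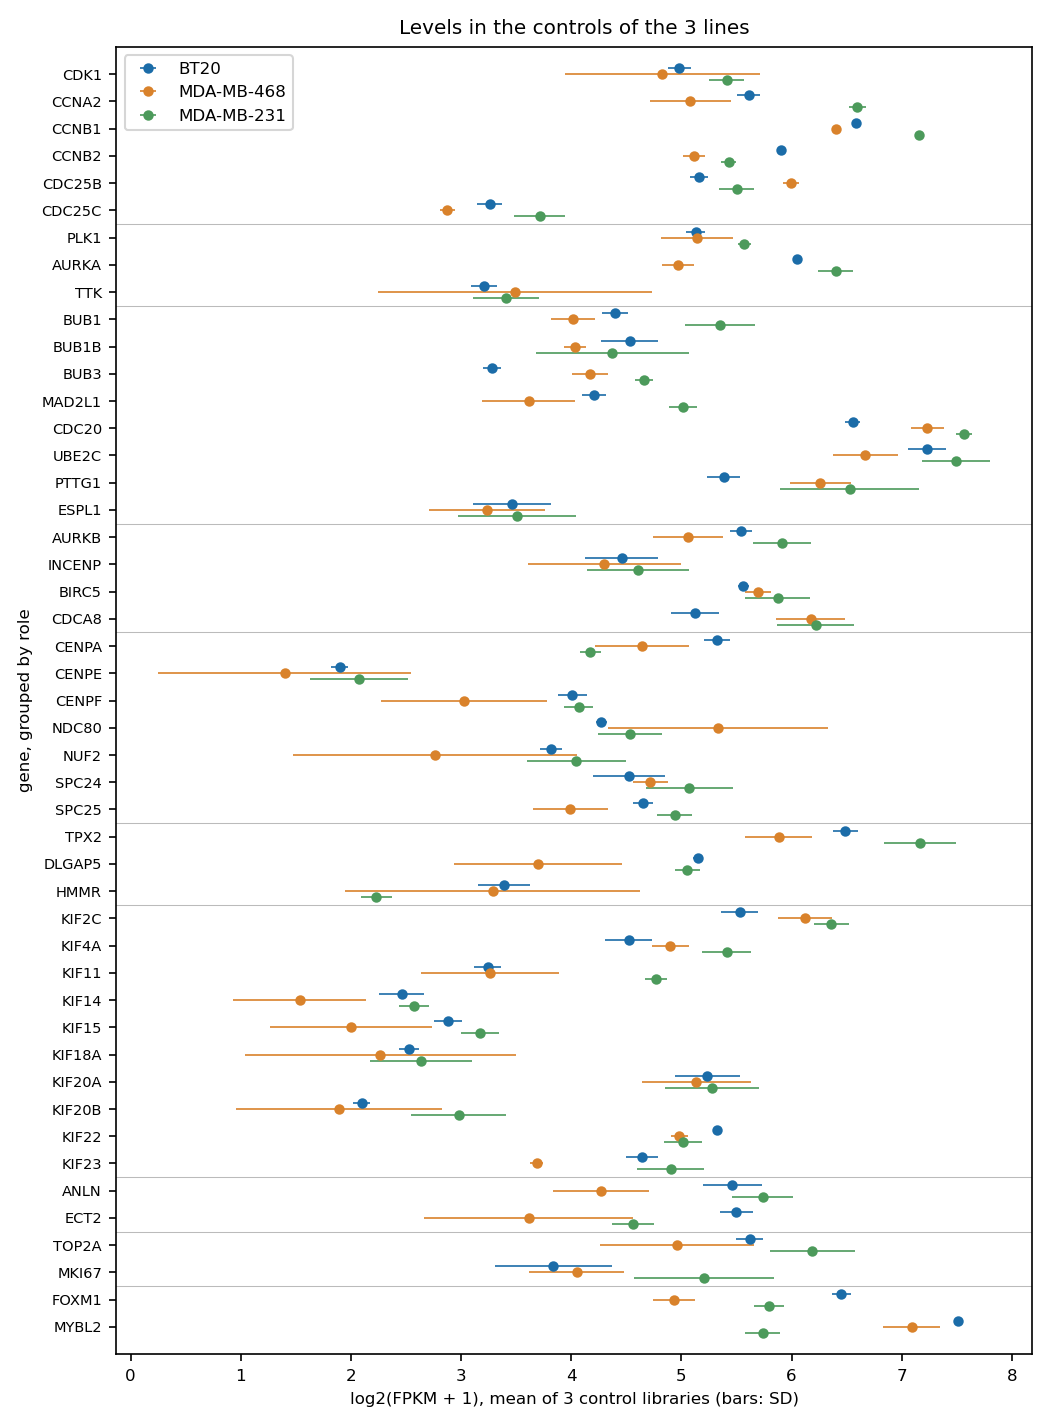
Mean control FPKM (horizontal axis, log scale) of the 47 genes (vertical axis, by role) in the 3 untreated lines, with the SD of 3 libraries as bars. MYBL2 is highest in BT20 (181) and lowest in MDA-MB-231, while BUB3 shows the opposite order.

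Other genes of the pathway, taken from lists of neighbouring functions, were counted beside the 49. The shares of all genes called in BT20, 8.51% lower and 8.16% higher, apply to these lists too. In BT20, 7 of 8 condensin genes fell, led by NCAPH (−1.22), as did 12 of 33 further centromere and kinetochore genes, led by the CENPA-loading chaperone HJURP (−1.503), with CENPM next (−1.44). Of 30 tested further spindle, centrosome and cytokinesis genes 16 fell, among them FAM83D (−1.79) and the kinesin KIF18B (−1.54). Of 10 cohesin genes 1 fell, CDCA5 (−1.20), which is near the share of all genes, and of 10 tested DREAM and MuvB subunits 0 changed by limma, with 1 at an unadjusted p under 0.05. Of 11 genes of the mitotic entry switch 5 fell, led by the CDK1-inhibiting kinase PKMYT1 (−1.49), and ARPP19 rose (0.60), while of 17 genes of the anaphase-promoting complex ANAPC15 (−1.08) and its inhibitor FBXO5 (−0.75) fell and ANAPC16 rose (0.54), again near the shares of all genes. Of 32 G1/S genes 19 fell, led by RRM2 (−1.90), UHRF1 (−1.90) and MCM2 (−1.69). Of 11 interphase kinesins, which move cargo, 2 rose, KIF3A (1.03) and KIF3B (0.97), and 0 fell.

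In MDA-MB-468 with the block, where 15.4% of all genes rose and 14.3% fell, 9 of 32 tested further centromere and kinetochore genes rose, by at most 0.61 (CENPQ), and 0 fell, while 9 of 32 G1/S genes fell and 3 rose, among them CCNE2 (0.97), a count below the share of all genes. Without the block 0 genes of either list were called there. In MDA-MB-231 with the block, where 11.4% of all genes fell and 12.6% rose, 9 of 32 tested further centromere and kinetochore genes, 13 of 30 spindle, centrosome and cytokinesis genes and 9 of 32 G1/S genes fell, led by SPDL1 (−1.28), FAM83D (−1.34) and RRM2 (−1.30), and 0 genes of these lists rose. Without the block 0 were called.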

How the data were processed

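Total RNA libraries (TruSeq stranded) of the 18 samples were processed by the authors with cutadapt 2.8, TopHat2 2.1.1 on GRCh38.p13 and HTSeq 0.11.3. The authors deposited FPKM values per Ensembl gene, which the paper says were estimated with Cufflinks from Ensembl gene lengths. Whether counting used strand is not given in the sources used here. Values of low genes were whole multiples of 1 read for 99.75% of the values (tolerance 0.01 reads), so reads were recovered for 39304 genes; the divisor was the reads in protein-coding genes.

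log2(FPKM + 1) values were quantile-normalized and tested with limma 3.58.1 (R 4.3.3), keeping genes with 1 FPKM in at least 3 libraries of the fit; fold changes on this scale understate those of low genes. NAM was tested within each line, controls in 1 fit of 9 libraries and interactions in 1 fit of 18. A call is a Benjamini-Hochberg adjusted p under 0.05 over all genes tested. limma-voom on the recovered reads called 31 members for BT20, 1 for MDA-MB-468 and 0 for MDA-MB-231, with no share of all genes at hand. Scripts were tested on simulated data.

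The 49 members and the lists were chosen with earlier results of these data known. Values in every library are given for the called member with the largest fold change in each role, for members against the majority and for members on which a comparison turns. Nothing says that replicates are separate cultures, so p-values measure the spread between these samples, which may be technical.

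Replicate numbers were taken as pairs where deviations of same-numbered libraries from their group means correlated over 0.1 across genes. This held for NAM in MDA-MB-468 (0.706, 0.613 and 0.128) and also MDA-MB-231 (0.74, 0.616 and 0.716), not in BT20 (0.017, −0.081 and 0.1). In MDA-MB-468 control 3 with NAM 2 (0.437) and control 2 with NAM 3 (0.321) correlated too, and in MDA-MB-231 they did at 0.451 and 0.688. Replicate 1 correlated negatively with 2 and 3 in both lines. The block therefore mainly takes out replicate 1, and the pairing of 2 and 3 by number is not established. Between controls it held for MDA-MB-468 and BT20 (0.297, 0.153 and 0.267) and for MDA-MB-231 and BT20 (0.635, 0.429 and 0.504), not for MDA-MB-231 against MDA-MB-468 (0.241, −0.004 and 0.364). GC adjustment subtracted the median deviation in 50 equal GC bins per library, from GENCODE v44 transcripts. Promoters came from RefSeq (GRCh38.p14).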

Additional observations from a re-analysis of the deposited data

Results flagged for a closer look

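In 5 genes the NAM effect differed between MDA-MB-468 and BT20 by the interaction test (limma over 18 libraries, adjusted p under 0.05), each with a smaller decrease or an increase in MDA-MB-468. The differences on the log2 scale were 2.18 for SPC25, 1.58 for KIF2C, 1.41 for CENPA, 1.23 for PTTG1 and 1.04 for BIRC5. SPC25 was called with each single library left out, while each of the other 4 lost its call in at least 1 of these fits.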

How the results depend on the processing

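No member called in a main fit changed direction in the settings run here. Members called only in another setting were not checked for this. The median over the members changed sign in some comparisons without 1 library or pair. For MDA-MB-231 and BT20 it went from 0.31 to −0.05 (without MDA-MB-231 NAM 2). For NAM in MDA-MB-468 it went from −0.05 to 0.04 (without control 1) and 0.01 (without both of replicate 1). Of 1216 repeats of called members under other settings 1071 kept their call and 145 lost it, and of 697 repeats without a library or pair 457 kept it and 240 lost it. With all genes unfiltered the calls were 1 in BT20, 2 for each of the other lines, and 2 for the interaction of MDA-MB-468 and BT20. In 1 fit of 18 libraries they were 0 for MDA-MB-468, 4 for MDA-MB-231, 13 for controls of MDA-MB-468 and BT20 and 14 for MDA-MB-231 and BT20. Median scaling gave 1 in MDA-MB-231 and 3 for that interaction, which had 2 with a pseudocount of 0.1, 1 with 1 FPKM in every library and 3 by limma-voom.

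With the replicate block the calls were 11 for MDA-MB-468, 24 for MDA-MB-231, 15 for the interaction of MDA-MB-468 and BT20 and 3 for MDA-MB-231 against MDA-MB-468. In BT20, where the samples share only a number, the block gave 40. The GC adjustment gave 2 in both MDA-MB lines, 13 for the former interaction and 1 for MDA-MB-231 and BT20. Block and GC adjustment together gave 10, 23, 24, 2 and, for MDA-MB-231 against MDA-MB-468, 5. Both GC adjustments and the fits without both libraries of replicate 1 (13 and 23) were added after seeing the data.

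Without 1 library the calls ranged from 6 to 46 in BT20, 0 to 4 for MDA-MB-468, 0 to 1 for MDA-MB-231, 1 to 16, 0 to 2 and 0 to 1 for the interactions (MDA-MB-468 and BT20, MDA-MB-231 and BT20, MDA-MB-231 against MDA-MB-468), and, for controls in the same order, 16 to 30, 16 to 22 and 22 to 30. Fewer samples were tested there. In BT20 the share of all genes that fell in these fits ranged from 2.25% to 11.8%, and it was 1.45% unfiltered. Where no share is given beside a count, a change in that count cannot be told apart from a change over all genes. Depth was at least 11538918 reads a library, and whether more depth would move a call was not tested. The cause of the other shifts was not tested.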
